A study of Mus musculus with 2 samples.

Results

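The genes of the interleukin-1 (IL-1) system and the neutrophil chemokines were followed in leukocytes of melanomas that were naive or resistant to targeted therapy. The set held 9 genes taken by symbol (Il1a, Il1b, Il1rn, Il1r2, Tnf, Cxcl1, Cxcl2, Cxcl3 and Cxcr2), and all 9 were among the 12584 genes of the count table. Live CD45+ cells had been sorted from tumours that YUMM3.3, a mouse melanoma line with mutant Braf and deleted Cdkn2a, formed in C57BL/6 mice. NTT tumours came from the line before any targeted therapy, and RTT tumours from its derivative resistant to BRAF inhibition, which had been kept in the BRAF inhibitor dabrafenib in culture. The series record gives collection at day 12 after injection, whereas a different day stands in the methods of the study for such experiments, and the record names no treatment of the mice. Each group was 1 tumour from 1 mouse, sequenced as 1 library. Effects of the line, the mouse, the sort and the library therefore cannot be told apart, and no difference could be tested against a spread between mice.

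IL-1α (Il1a) and IL-1β (Il1b) are agonists of the IL-1 receptor, which drives inflammatory gene expression through NF-κB. Their action is limited by the receptor antagonist (Il1rn), which occupies the receptor without signalling, and by the type 2 receptor (Il1r2), a decoy that binds the agonists but cannot signal. TNF (Tnf) is a further inflammatory cytokine that acts through NF-κB. The chemokines Cxcl1, Cxcl2 and Cxcl3 are ligands of the receptor CXCR2 (Cxcr2), by which neutrophils are drawn into inflamed tissue.

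In GENCODE M21 (GRCm38) the protein-coding genes Cxcl3 (chr5:90786103-90789600), Cxcl1 (chr5:90891241-90893115) and Cxcl2 (chr5:90903871-90905938) lie in a cluster on the + strand. Il1a (chr2:129299610-129309972) and Il1b (chr2:129364570-129371139) lie on the − strand, and Il1rn (chr2:24336853-24351494) lies on the + strand. Il1r2 (chr1:40074079-40125231) and Cxcr2 (chr1:74153989-74161246) lie on the + strand of chromosome 1, and Tnf (chr17:35199381-35202007) on the − strand of chromosome 17. The promoters of the chemokine genes are shown because they carry the same matched stretch. Il1b, the agonist found in most leukocytes here, is shown for contrast. Each run gives the 120 bases before the RefSeq transcription start (GRCm38.p6), 5′ to 3′ on the strand of the gene, with matches to the NF-κB motif (kappaB) and to TATAAA in capitals.
Cxcl1, chr5:90891125-90891244 (+ strand): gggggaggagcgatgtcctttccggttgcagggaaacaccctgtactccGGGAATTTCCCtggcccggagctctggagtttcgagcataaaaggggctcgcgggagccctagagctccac
Cxcl2, chr5:90903779-90903898 (+ strand): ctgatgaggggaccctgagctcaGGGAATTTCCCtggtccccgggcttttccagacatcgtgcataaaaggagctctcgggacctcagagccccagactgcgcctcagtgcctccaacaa
Cxcl3, chr5:90785981-90786100 (+ strand): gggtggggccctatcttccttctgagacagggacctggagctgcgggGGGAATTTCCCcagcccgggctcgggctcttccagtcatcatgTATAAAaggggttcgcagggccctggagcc
Il1b, chr2:129371140-129371259 (- strand): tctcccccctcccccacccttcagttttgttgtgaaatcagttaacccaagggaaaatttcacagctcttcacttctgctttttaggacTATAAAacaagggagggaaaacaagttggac
Both strands were searched, over 300 bases per promoter, and overlapping matches were kept. The capital stretch of each chemokine promoter holds 2 overlapping matches of 10 bases. They began 71 and 70 bases before the start of Cxcl1, 97 and 96 before Cxcl2, and 73 and 72 before Cxcl3. The kappaB motif occurred in 8.46% of all 32851 promoters and TATAAA in 13.6%. No kappaB match was present in the windows of the other 6 genes, and TATAAA was matched before the starts of Il1a, Il1b, Tnf and Cxcl3. Aligned over 300 bases, the promoters of Cxcl1 and Cxcl2 were 71.6% identical, those of Cxcl1 and Cxcl3 71.5%, and those of Cxcl2 and Cxcl3 72.8%. In the last 500 bases of the transcripts, near which 3′ reads fall, 7.63% of the 50-base windows of Cxcl2 also occurred in Cxcl3. Of the 902 such windows of Cxcl3, 0 occurred in Cxcl2. How reads from the common windows were counted was not tested.

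Unique molecular identifiers (UMIs) each mark 1 captured transcript. The table gave 19634099 UMIs in 2975 NTT cells and 44712071 UMIs in 4840 RTT cells. The median cell held 5398 UMIs in NTT and 8336 in RTT, and 7 cell barcodes occurred in both libraries. The authors had given each cell 1 of 16 population names, which are used here as labels. Levels are the UMIs of a gene as counts per 1e6 UMIs summed over the same cells (CPM), ratios are log2 of RTT over NTT, and populations with fewer than 20 cells in a library are not given a level. All intervals are exact 95% intervals that cover counting error only. Shares of cells with a transcript were taken after each cell had been thinned to 2000 UMIs, which left out 107 NTT and 63 RTT cells of lower depth.

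Several labels stood apart from their markers. The label Neutro (neutrophils) held 91 NTT and 29 RTT cells, and 10 of 10 neutrophil markers had UMIs in both libraries. Their summed level was 90104 CPM in NTT but 20492 CPM in RTT, whereas the macrophage gene C1qa stood at 1258 and 7699 CPM. Among these cells 13 of 91 in NTT and 15 of 29 in RTT held C1qa at 1000 CPM or more, and values for neutrophils are therefore also given without them. Ly6g, a defining neutrophil gene, had 9 UMIs in NTT and 1 in RTT. The label NK_cells covered 152 NTT and 44 RTT cells with a UMI of the T cell genes Cd3e or Trac, against 26 and 7 without. TAM_C1q, a tumour-associated macrophage population, held 17 NTT and 2001 RTT cells, and Monocyte_1 held 984 NTT and 99 RTT cells, so that levels over all cells reflect different mixtures of cells.

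Other labels also held cells that differed between the tumours. In Infl_Mono, the label for inflammatory monocytes, 7 of 7 macrophage markers had UMIs in both libraries, and their summed level was 7615 CPM in NTT and 32428 CPM in RTT. The 4 monocyte markers there summed to 13698 and 4614 CPM, and the 10 neutrophil markers to 2252 and 501 CPM. In TAM_Spp1 macrophages the macrophage markers summed to 8190 and 21738 CPM, the monocyte markers to 6873 and 2350 CPM, and the neutrophil markers to 4539 and 308 CPM. In Monocyte_1 the macrophage markers stood closer, at 17658 and 16709 CPM, and the monocyte markers at 7336 and 4424 CPM. The cDC2 label held 6784 and 1059 CPM of monocyte markers. What part these shifts played in the ratios of these populations was not tested.

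Over all cells, transcripts of the IL-1 system were scarcer in the RTT tumour, and the difference was largest for the receptor genes. Among the 9 genes, 6 were at least 2-fold lower (Il1b, Il1rn, Il1r2, Tnf, Cxcl2 and Cxcr2) and 1 was at least 2-fold higher (Cxcl1), with the interval away from 0 in each. By the same rule 11.6% of the 10258 genes with at least 100 UMIs were lower and 9.09% were higher. The median ratio of the 9 genes was −1.40, against 0.08 for all genes. Il1r2 stood at 851 CPM in NTT and 131 CPM in RTT (−2.70, interval −2.74 to −2.65). Cxcr2 stood at 17.0 and 1.68 CPM (−3.34, −3.72 to −2.98). Il1a, at 5.70 and 4.88 CPM, was the 1 gene whose interval reached 0 (−0.23, −0.56 to 0.12). Without the neutrophils Cxcl2 stood at 0.01 and Il1a at 1.27, and without the 5 RTT cells richest in Cxcl2, Cxcl1 stood at 0.48. Those 5 cells held 61.5% of the RTT Il1a UMIs, and without them, but with the neutrophils, Il1a stood at −1.60. No Il1a ratio was taken without both.

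These ratios mix differences in the make-up of the leukocytes with differences within populations. When the difference over all cells was split, the shares of the populations accounted for 58.9% of that of Il1b, 49.4% of that of Il1rn and 53.5% of that of Il1r2, averaged over weights from either library. For Il1r2 the part was 21.4% with NTT weights and 85.5% with RTT weights, and for Cxcl2 it was 7.05% and 84.1%. The split thus depended on which tumour supplied the weights. For Tnf the part from shares was small under both weights, at 12.9% and 15.9%. Such a split draws on levels from both libraries. TAM_C1q, with 40.8% of the RTT UMIs, had only 17 NTT cells, and Ctsk_Macro, with 9.1%, had 0. How far this moved the split of any gene, Tnf included, was not tested. Levels within populations are therefore given gene by gene.

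**Figure D1:**
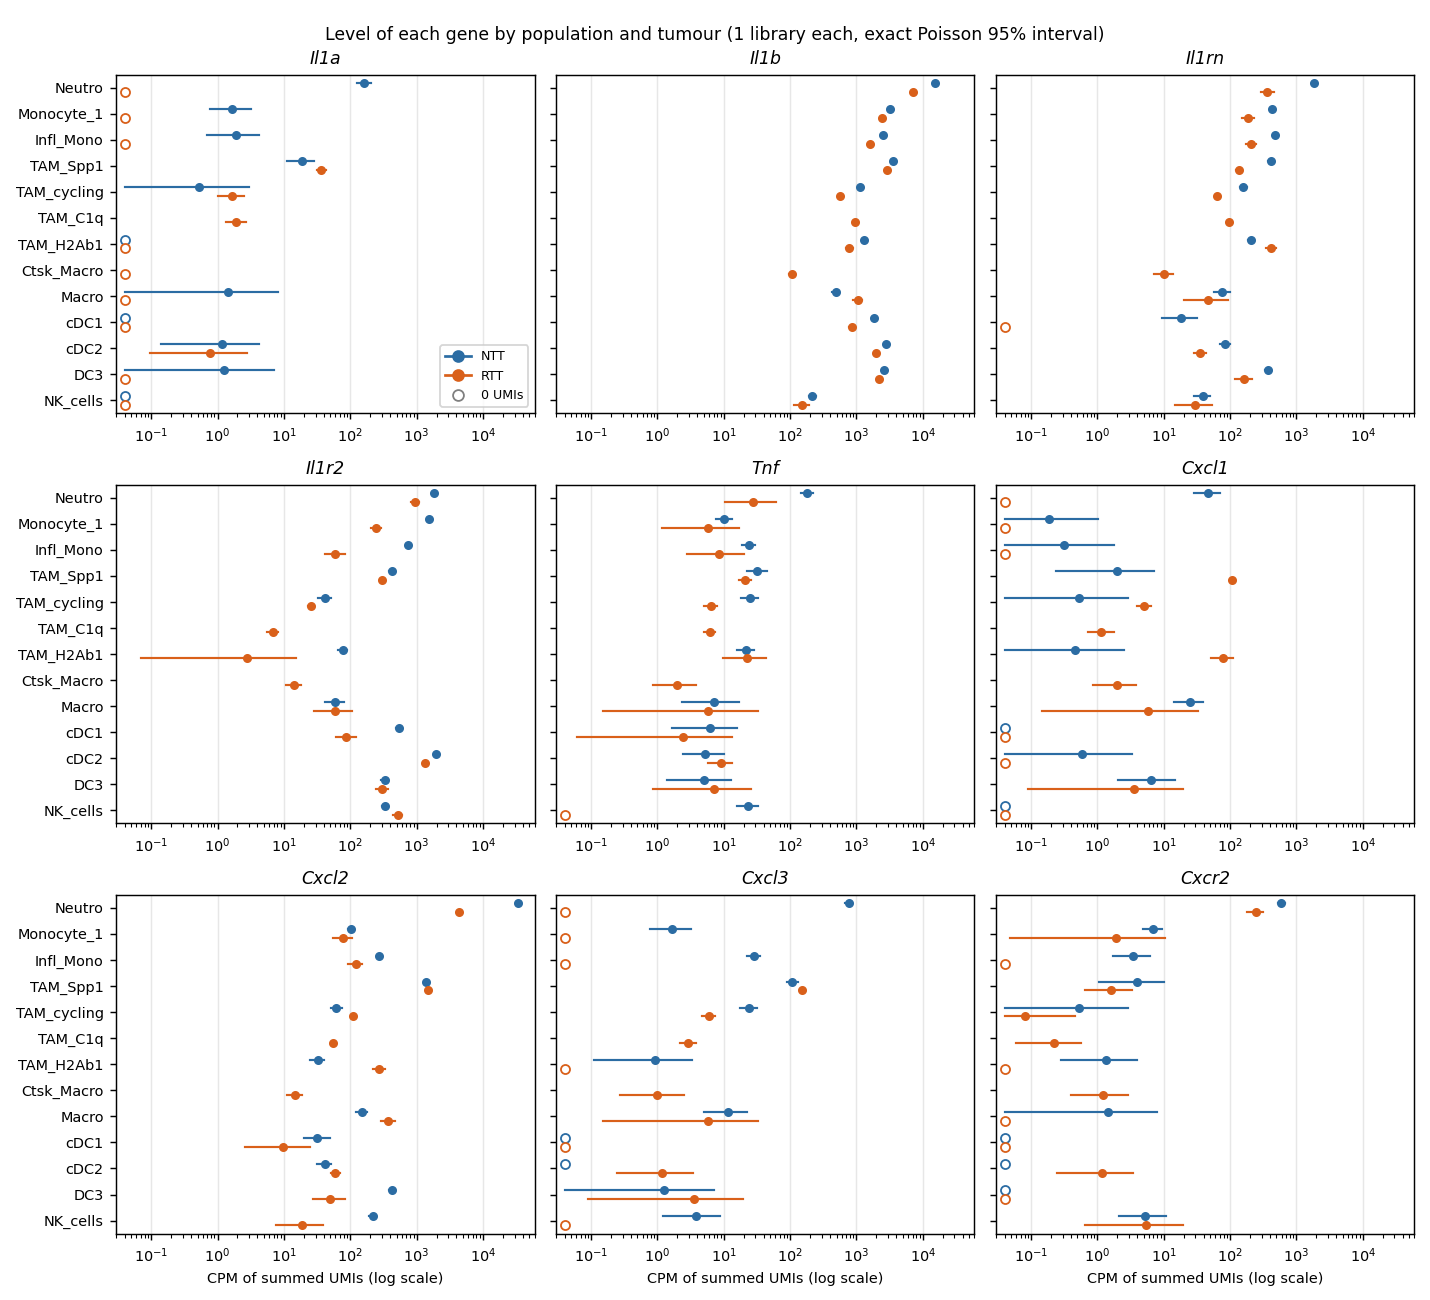
Level of each of the 9 genes by population and library. The horizontal axis is CPM of summed UMIs on a log scale, points are levels of the NTT (blue) and RTT (orange) library, bars are exact Poisson 95% intervals, and hollow points at the left edge mark 0 UMIs. Neutrophils held the highest level of Cxcl2 in NTT, 34392 CPM, and in RTT, 4372 CPM.

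Il1b was detected in every population given a level and in both tumours. Neutrophils stood highest, with 15127 CPM (6855 UMIs, interval 14771 to 15490) in NTT and 7209 CPM (1545 UMIs, 6854 to 7577) in RTT. TAM_Spp1 macrophages followed with 3506 and 2882 CPM, a ratio of −0.28 (−0.34 to −0.23). Monocyte_1 cells, the most numerous NTT population, held 3229 and 2403 CPM (−0.43, −0.51 to −0.34). In both of these macrophage and monocyte populations the agonist thus stayed within 2-fold between the tumours. In Infl_Mono Il1b stood at 2517 and 1584 CPM, and in type 2 conventional dendritic cells (cDC2) at 2809 and 1952 CPM. It was at least 2-fold lower in RTT in TAM_cycling (1132 and 564 CPM) and cDC1 (1812 and 855 CPM). In neutrophils the ratio was −1.07 (−1.15 to −0.99), but it was 0.63 without the cells high in C1qa. Macro, a small population of 100 NTT and 26 RTT cells, was the exception, with 484 and 1044 CPM (1.11, 0.84 to 1.38).

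The cells that carried Il1b differed between the tumours. Monocyte_1 held 35.0% of the NTT transcripts, whereas TAM_C1q held 36.8% and TAM_Spp1 26.4% of the RTT transcripts. In TAM_C1q macrophages of the RTT tumour the level was 962 CPM, and in Ctsk_Macro, found in the RTT library alone, it was 106 CPM (96.4 to 117), no higher than in RTT NK_cells (149 CPM, 112 to 194). After thinning, 76.5% of NTT and 44.1% of RTT cells held an Il1b UMI (87.1% and 60.4% before thinning). In Monocyte_1 the shares were 92.3% and 65.3% (96.8% and 80.8% before), although the level differed by less than 2-fold. As a background, 14.0% of NTT and 9.76% of RTT NK_cells held an Il1b UMI after thinning (34.3% and 17.6% before), at median depths of 5359 and 3967 UMIs.

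**Figure D2:**
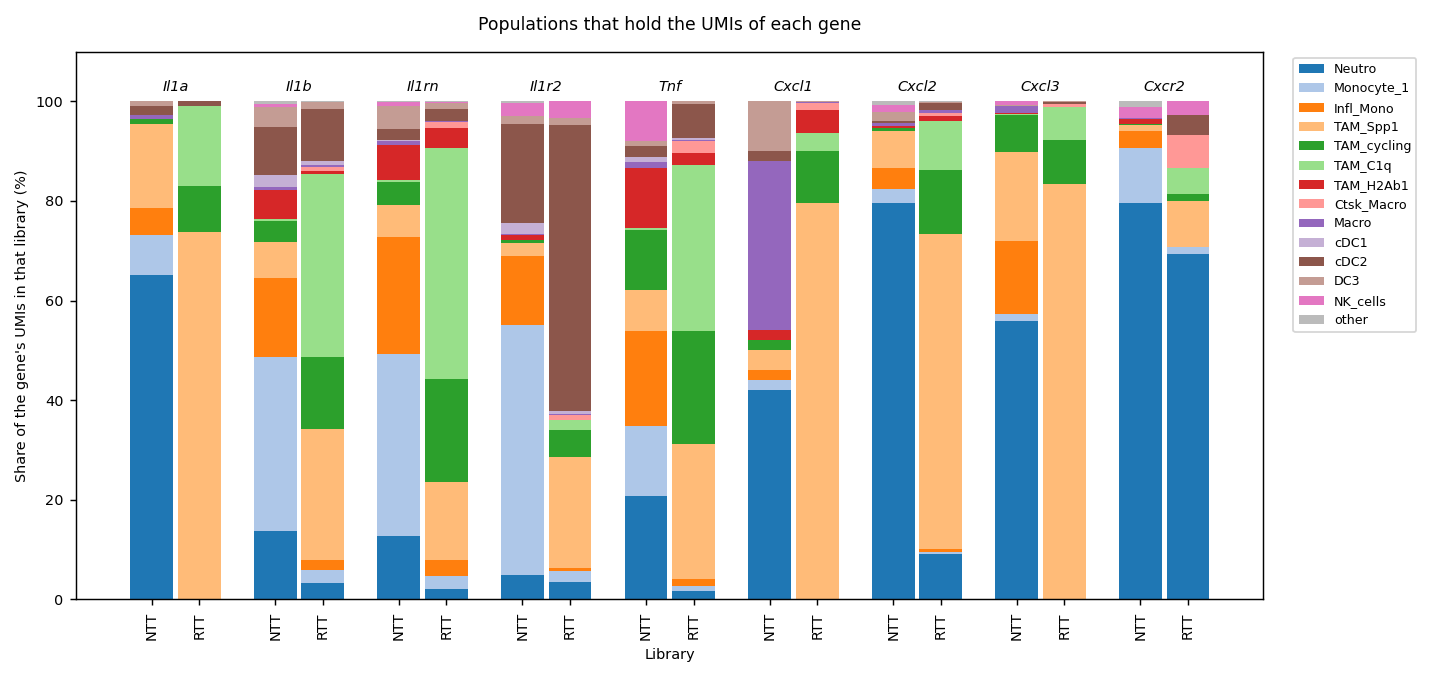
Populations that held the UMIs of each gene. Each stacked bar is 1 gene in 1 library, the vertical axis is the share (%) of that gene's UMIs in that library, and colours are populations. Neutrophils held 79.6% of Cxcl2 UMIs in NTT and 9.13% in RTT, where TAM_Spp1 held 63.1%.

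Il1a, the other agonist, was rare. In NTT, neutrophils held 73 of the 112 UMIs (161 CPM, 126 to 203), whereas in RTT the 29 neutrophils held none, at least 11.5-fold lower against a floor of 3 UMIs, at least 5.04-fold without the richest NTT cell and at least 2.35-fold without the cells high in C1qa. TAM_Spp1 macrophages held 19 UMIs in NTT (18.5 CPM) and 161 in RTT (36.9 CPM), a ratio of 1.00 (0.31 to 1.77). The main holder of Il1a in RTT was thus TAM_Spp1, with 73.9% of the RTT transcripts. Of the 218 RTT UMIs, 61.5% lay in 5 cells, which are described with the chemokines, and without these the TAM_Spp1 ratio was −1.56. In Monocyte_1, Infl_Mono and cDC2 the gene had at most 9 UMIs per library.

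The receptor antagonist gene Il1rn was lower in RTT than in NTT in most myeloid populations. Neutrophils held 1827 CPM (828 UMIs) in NTT and 364 CPM (78 UMIs) in RTT, a ratio of −2.33 (−2.68 to −1.99), and the ratio was −0.95 without the cells high in C1qa. In Monocyte_1 the levels were 435 and 188 CPM (−1.21, −1.51 to −0.92), and in Infl_Mono 481 and 209 CPM (−1.20, −1.48 to −0.94). TAM_Spp1 macrophages held 409 and 134 CPM (−1.61, −1.79 to −1.43), beside the shifts in macrophage and monocyte markers given above for Infl_Mono and TAM_Spp1. At least 2-fold lower levels were also found in TAM_cycling (−1.31), cDC2 (−1.24) and DC3 (−1.20), and in cDC1 12 NTT UMIs stood against 0, at least 2.53-fold lower (1.73-fold without the richest NTT cell). TAM_H2Ab1 went the other way, with 207 CPM in NTT and 416 CPM in RTT (1.01, 0.73 to 1.28). That RTT level rested on 36 cells, and without the cell with the most Il1rn UMIs in each library the ratio was 0.57. Over all cells, 37.1% in NTT and 12.6% in RTT held an Il1rn UMI after thinning (58.6% and 32.9% before), against 6.1% and 4.88% of NK_cells (18.0% and 9.80% before).

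**Figure D3:**
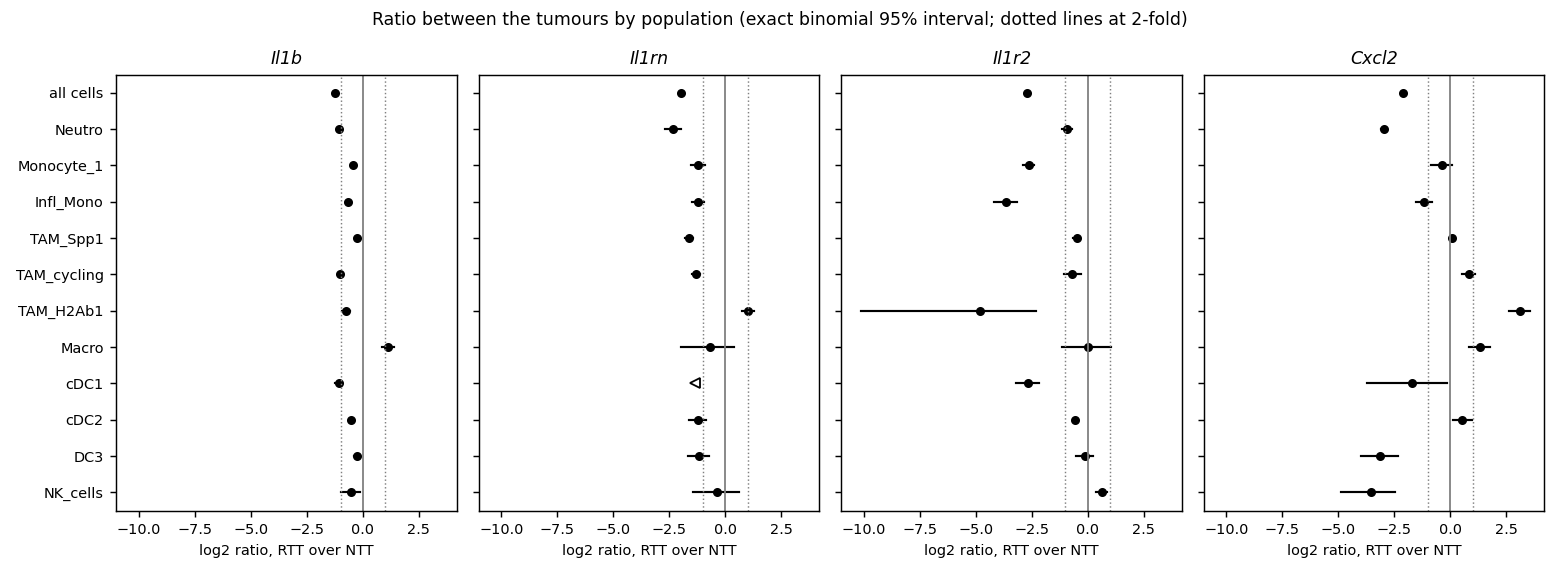
Ratio between the tumours of Il1b, Il1rn, Il1r2 and Cxcl2 by population. The horizontal axis is the log2 ratio of RTT over NTT, points are ratios with exact binomial 95% intervals, dotted lines mark 2-fold, and the open triangle is a bound against 0 UMIs. Il1rn lay at or below −1.20 in 7 of the populations shown by points, whereas the ratio of Il1b was −0.43 in Monocyte_1 and −0.28 in TAM_Spp1.

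Set against Il1b in the same cells, the antagonist was scarcer in RTT in most populations. Since both genes were read in the same cells, depth per cell cancels in this ratio, and it is compared only between cells. Over all cells there were 12.9 Il1rn UMIs per 100 Il1b UMIs in NTT (12.6 to 13.3) and 7.86 in RTT (7.60 to 8.13). The gap was wide in TAM_Spp1, at 11.7 (10.5 to 12.9) against 4.66 (4.28 to 5.06), and in neutrophils, at 12.1 (11.2 to 13.0) against 5.05 (3.97 to 6.34). Without the C1qa-high cells the neutrophil values were 12.4 and 4.16. Monocyte_1 held 13.5 and 7.84 per 100, Infl_Mono 19.1 and 13.2, DC3 14.1 and 7.43, and Macro 15.8 and 4.49. Intervals of the 2 libraries did not meet in any of these. In TAM_cycling they lay close, at 14.0 (12.3 to 15.8) and 11.3 (10.5 to 12.2). TAM_H2Ab1 was again reversed, with 15.7 (14.2 to 17.4) in NTT and 53.4 (43.5 to 65.3) in RTT. In RTT this rested on 36 cells, 1 of which held 46 of the 150 Il1rn UMIs, and the value without that cell was not taken. cDC2 and cDC1 had the least antagonist per Il1b in both tumours, at 2.96 and 1.80 in cDC2 and 1.01 and 0 in cDC1.

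**Figure D4:**
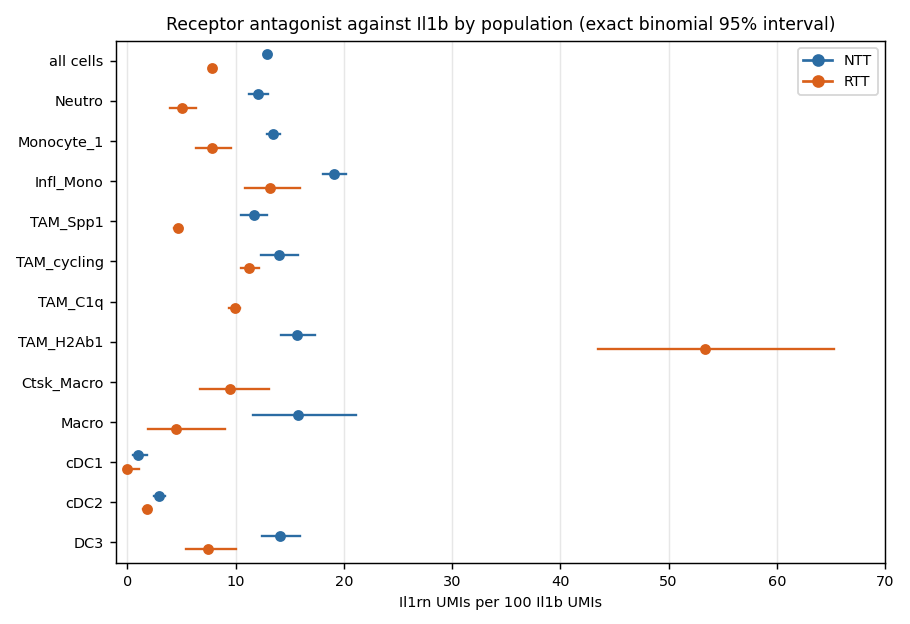
Il1rn UMIs per 100 Il1b UMIs by population and library. The horizontal axis is that ratio, points are the NTT (blue) and RTT (orange) library, and bars are exact binomial 95% intervals. RTT lay below NTT in all populations with both points except TAM_H2Ab1, where it was 53.4 against 15.7. In RTT TAM_H2Ab1, 1 cell held 46 of the 150 Il1rn UMIs. NK_cells are not drawn, and their ratio was 20.0 in RTT against 17.8 in NTT with intervals that meet.

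Il1r2, the decoy receptor gene, differed strongly in monocytes. Monocyte_1 cells held 1545 CPM (8369 UMIs) in NTT and 247 CPM (130 UMIs) in RTT, a ratio of −2.64 (−2.90 to −2.39). Infl_Mono cells, whose monocyte markers were also lower in RTT, held 744 and 59.4 CPM (−3.65, −4.17 to −3.17). In cDC1 the levels were 554 and 87.2 CPM (−2.67, −3.20 to −2.17), and TAM_H2Ab1 held 171 UMIs in NTT and 1 in RTT (−4.80, −10.1 to −2.31). In each of these 4 populations the ratio was past 6-fold. In contrast, cDC2 kept 1953 CPM in NTT and 1319 CPM in RTT (−0.57, −0.64 to −0.50), TAM_Spp1 422 and 301 CPM (−0.49), and DC3 335 and 304 CPM (−0.14, −0.51 to 0.22). In neutrophils the levels were 1832 and 961 CPM (−0.93, −1.16 to −0.71), but the direction turned without the cells high in C1qa (1.00, 0.73 to 1.27).

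Detection in monocytes differed likewise. After thinning, 75.7% of NTT and 22.4% of RTT Monocyte_1 cells held an Il1r2 UMI (85.2% and 28.3% before), and 44.3% and 9.78% of Infl_Mono cells did (56.0% and 10.6% before). In cDC2 the shares were 69.6% and 75.2%, with intervals of 63.8 to 75.1% and 70.7 to 79.4% that meet. After thinning no difference in detection was thus resolved there. Before thinning the cDC2 shares were 77.4% in NTT and 90.3% in RTT, at like median depths of 5874 and 5861 UMIs. Monocyte_1 held 50.1% of the NTT transcripts and cDC2 19.9%, whereas cDC2 held 57.4% of the RTT transcripts and TAM_Spp1 22.3%. The label NK_cells also carried Il1r2, at 335 CPM in NTT and 518 CPM in RTT. Nearly all of these UMIs lay in the cells with Cd3e or Trac. Of these cells 58.6% in NTT (443 UMIs) and 54.5% in RTT (189 UMIs) held the gene before thinning. The 26 NTT and 7 RTT cells without either T cell gene held 2 Il1r2 UMIs in each library. TAM_C1q, by contrast, was nearly without the gene, at 6.80 CPM.

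Tnf was sparse, with 394 UMIs in NTT and 339 in RTT. Neutrophils held 82 UMIs in NTT (181 CPM, 144 to 225) and 6 in RTT (28.0 CPM, 10.3 to 60.9), with a ratio of −2.69 that was −0.61 (−2.27 to 0.67) without the cells high in C1qa. TAM_cycling cells held 24.8 and 6.32 CPM (−1.97, −2.51 to −1.42). TAM_Spp1 macrophages held 32.1 and 21.1 CPM, and the interval of their ratio reached 0 (−0.60, −1.19 to 0.02). TNF is also made by lymphocytes, and NK_cells held 31 UMIs in NTT and none in RTT, at least 2.87-fold lower. Infl_Mono cells held 75 and 5 UMIs, at 23.9 and 8.49 CPM (−1.49, −3.15 to −0.20), and 1 NTT cell held 26 of the 75. The lower level over all cells (20.1 and 7.58 CPM) was thus also found in cycling macrophages, and in Infl_Mono with that cell included. In Monocyte_1, with 55 and 3 UMIs, no direction was resolved (−0.83, −3.15 to 0.79).

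Cxcl2 was by far a neutrophil transcript in NTT. The 91 neutrophils held 15585 of the 19588 UMIs, at 34392 CPM (33854 to 34936), and in RTT 29 neutrophils held 937 UMIs, at 4372 CPM (4096 to 4661). The ratio was −2.98 (−3.07 to −2.88), and after thinning 94.3% of NTT and 75.0% of RTT neutrophils held the gene (94.5% and 79.3% before). Without neutrophils the ratio over all cells was 0.01, in place of −2.12. That value included 5 RTT TAM_Spp1 cells, described below, which held 38.7% of the RTT Cxcl2 UMIs. A ratio without both the neutrophils and those cells was not taken. TAM_Spp1, the second holder of Cxcl2, stood at 1410 CPM in NTT and 1486 CPM in RTT (0.08, −0.01 to 0.16). Detection in TAM_Spp1 was nonetheless lower in RTT, at 25.7% of NTT and 13.5% of RTT cells after thinning (35.8% and 19.5% before), so that a smaller share of the RTT cells carried a like level.

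Cxcl2 was far lower in the other populations, and in part of them it was no higher than in cells that should lack it. NTT Monocyte_1 cells held 101 CPM and RTT cells 78.0 CPM, and 9.99% and 6.12% had the gene after thinning (22.1% and 8.08% before), against 7.93% of NTT NK_cells and 0 of 41 RTT NK_cells, which allows a share of up to 7.32%. NTT NK_cells held 219 CPM, but 66.7% of those UMIs lay in 1 cell. In the NTT library Cxcl2 had 0.478 UMIs per UMI of the neutrophil genes S100a8 and S100a9 in neutrophils. It had between 0.368 and 0.424 in TAM_cycling, TAM_H2Ab1, cDC1 and cDC2, and whether this was background in those 4 populations was not tested. In NTT TAM_Spp1 Cxcl2 had 9.42, in Infl_Mono 1.66 and in Monocyte_1 1.04, above the neutrophil value. In RTT the neutrophil value was 0.288, against 14.6 in TAM_cycling, 6.83 in Monocyte_1 and 2.69 in TAM_C1q. The Monocyte_1 value rested on 6 UMIs of S100a8 and S100a9. The RTT Cxcl2 levels of TAM_cycling (109 CPM), cDC2 (59.8 CPM) and TAM_C1q (54.9 CPM) also lay above that of RTT NK_cells (19.0 CPM, 7.63 to 39.1). Those of Ctsk_Macro (14.7 CPM) and cDC1 (9.68 CPM) did not. These RTT NK_cells held S100a8 and S100a9 at 654 CPM. Infl_Mono cells held 272 and 121 CPM of Cxcl2 (−1.17, −1.54 to −0.82). This ratio moved widely, to −0.05 by the mean of per-cell CPM, −0.97 without the top Scrublet scores, −2.17 without the richest cell in each library and −4.23 in cells with at least 1500 genes, and in the first and second of these it was under 2-fold. The 3.09 ratio of TAM_H2Ab1 and the −3.12 ratio of DC3 each rested on 1 cell, which held 99.0% of the RTT UMIs of the former and 90.8% of the NTT UMIs of the latter. Without the cell with the most UMIs in each library they were −3.45 and −0.29.

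Cxcl3, and in RTT also Cxcl1, lay mainly in the populations that held most of the Cxcl2. Cxcl3 had 344 UMIs in NTT neutrophils (759 CPM, 681 to 844) and none in RTT neutrophils, at least 54.2-fold lower. In Infl_Mono 89 NTT UMIs stood against none in RTT, at least 5.56-fold lower, but 1 cell held 47 of them, and without it the bound was 2.61-fold. TAM_Spp1 macrophages went the other way, with 108 CPM in NTT and 153 CPM in RTT (0.51, 0.22 to 0.81). Cxcl1 was found in few cells of either library, in 15 of 2975 NTT cells (50 UMIs) and 27 of 4840 RTT cells (592 UMIs). TAM_Spp1 held 471 of the RTT UMIs (108 CPM), against 2 UMIs in NTT (5.80, 3.93 to 8.85, or 2.18 without the 5 cells described next). The higher level of Cxcl1 over all cells, 13.2 against 2.55 CPM, was thus carried by very few cells: 27 RTT cells held the gene, and 1 of them held 59.1% of its UMIs.

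Within TAM_Spp1, Cxcl3 and Il1a were found mostly in cells that also held Cxcl2. Of 703 thinned RTT cells, 95 held Cxcl2, and of these 18.9% held Cxcl3 and 9.47% held Il1a. Among the 608 cells without Cxcl2, 1.15% held Cxcl3 and none held Il1a, which allows a share of up to 0.493%. In NTT, Cxcl3 was found in 20.4% of the 49 cells with Cxcl2 and in 2.82% of the 142 without. Il1b was common in either class of RTT cells, at 88.4% and 69.9%. In NTT neutrophils, 22 of 83 cells with Cxcl2 also held Cxcl3. These shares were counted on cells of equal depth.

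A large part of the RTT chemokine transcripts lay in a handful of cells labelled as macrophages. The 5 RTT cells with the most Cxcl2, chosen after its values were seen, had 975, 930, 855, 752 and 455 UMIs of it. All 5 carried the label TAM_Spp1, and together they held 38.7% of the RTT Cxcl2, 73.1% of the Cxcl1, 48.8% of the Cxcl3 and 61.5% of the Il1a UMIs, but 1.80% of the Il1b and none of the Cxcr2 UMIs. The richest in Cxcl1 held 350 UMIs of it, with 210 of Cxcl3, 61 of Il1a and 33 of Tnf. S100a8 and S100a9 had at most 1 UMI in any of them, and C1qa at most 3, whereas the monocyte and macrophage gene Cd14 had 22 to 93 and Ptgs2, the inducible cyclooxygenase, 8 to 127. Spp1, which gives the label its name, had 164 UMIs in 1 of them and at most 10 in the others. The 5 NTT cells with the most Cxcl2 held 553 to 948 UMIs, carried the label Neutro, and had 42 to 435 UMIs of S100a8.

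Without these 5 RTT cells the chemokine and Il1a ratios changed more than those of Il1b and Il1rn. Over all cells Cxcl1 went from 2.38 to 0.48, Il1a from −0.23 to −1.60 and Cxcl3 from −0.80 to −1.77, while Cxcl2 went from −2.12 to −2.82. In TAM_Spp1 Cxcl2 went from 0.08 to −1.28 and Cxcl3 from 0.51 to −0.75, whereas Il1b went from −0.28 to −0.37 and Il1rn from −1.61 to −1.72. Since these cells were chosen for their Cxcl2 and taken from RTT alone, its ratio had to fall. When the 5 TAM_Spp1 cells richest in Cxcl2 were left out of each library, which held 42.3% of the NTT and 61.3% of the RTT Cxcl2 UMIs of that label, the levels were 845 and 580 CPM and the ratio was −0.54. With only the richest cell of each library left out it was 0.01.

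**Figure D5:**
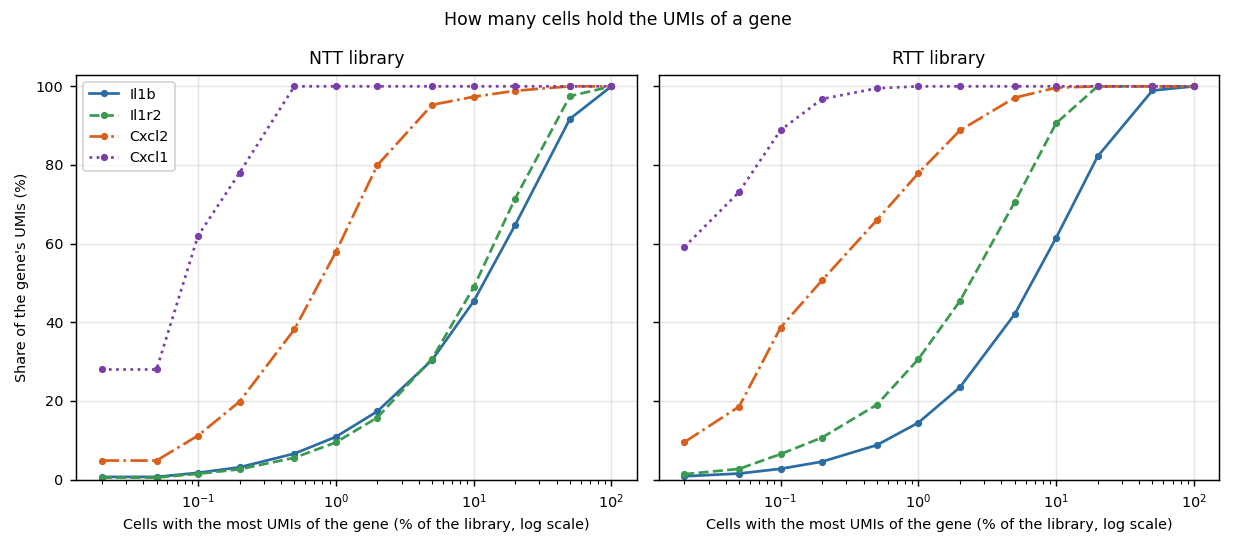
How many cells held the UMIs of Il1b, Il1r2, Cxcl2 and Cxcl1 in each library. The horizontal axis is the percentage of cells taken, starting with those richest in the gene, on a log scale, and the vertical axis is the share (%) of the gene's UMIs they held. For Cxcl2, 24 NTT and 10 RTT cells held 50% of the UMIs, whereas for Il1b it took 358 and 326 cells.

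The spread over cells set the members apart. For Il1b, 50% of the UMIs lay in 12.0% of the NTT and 6.74% of the RTT cells, and for Il1r2 in 10.4% and 2.44%. For Cxcl2 the same portion lay in 0.807% and 0.207%. Il1b was thus broadly carried in both tumours and Il1r2 in NTT, while in RTT 849 of 4840 cells held Il1r2. The neutrophil chemokines were concentrated in few cells of both tumours. Tnf needed 37 NTT and 59 RTT cells, Cxcl3 needed 8 and 4, and Il1a 4 and 3.

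Cxcr2, the receptor of these chemokines, was confined largely to neutrophils. They held 266 of the 334 NTT UMIs (79.6%) and 52 of the 75 RTT UMIs (69.3%). The level was 587 CPM (519 to 662) in NTT and 243 CPM (181 to 318) in RTT neutrophils, a ratio of −1.27 (−1.73 to −0.84) that was 0.24 without the cells high in C1qa. After thinning, 59.1% and 37.5% of neutrophils held the gene, with intervals that meet (48.1 to 69.5% and 18.8 to 59.4%), and 78.0% and 69.0% did before. Neutrophils were 3.06% of NTT and 0.599% of RTT cells, and these and other population shares accounted for 32.7% of the Cxcr2 difference with NTT weights and 85.6% with RTT weights. In Monocyte_1 37 UMIs stood against 1 (−1.84, −7.19 to 0.72).

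Among the genes with at least 100 UMIs in neutrophils, 5 of 6 members were at least 2-fold lower in RTT (Il1b, Il1rn, Cxcl2, Cxcl3 and Cxcr2) and none was higher, against 25.2% of all genes lower and 24.8% higher. With the C1qa-high cells removed, 78 NTT and 14 RTT cells remained, and 2 of 6 members were lower (all genes 18.3%) and 1 was higher (all genes 9.67%). Il1b was then higher in RTT, at 16627 and 25740 CPM (0.63, 0.53 to 0.73), and Il1r2 stood at 1862 and 3736 CPM (1.00, 0.73 to 1.27). The interval of Cxcr2 then reached 0, at 652 and 769 CPM (0.24, −0.38 to 0.81). Cxcl2 remained lower, at 39328 and 12747 CPM (−1.63, −1.76 to −1.49), Il1rn stood at 2064 and 1071 CPM (−0.95, −1.45 to −0.48), and Cxcl3 had 332 and 0 UMIs, at least 11-fold lower. The summed neutrophil markers in these cells were 99998 CPM in NTT and 52222 CPM in RTT, and the part that macrophage RNA played in any of these ratios was not tested.

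Counts of members in the other populations were set against all genes in the same way. In Monocyte_1, 2 of 4 members with at least 100 UMIs were at least 2-fold lower (all genes 10.2%), and in Infl_Mono 3 of 4 (9.64%), or 2 of 4 by the mean of per-cell CPM. In TAM_cycling 4 of 6 were lower (4.7%), among them Cxcl3, whose 45 NTT UMIs lay in 1 cell. TAM_Spp1 had 1 of 8 lower and 1 of 8 higher, against 13.3% of all genes in each direction, so the members there were called about as often as other genes. Without the 5 RTT cells richest in Cxcl2, 4 were lower in TAM_Spp1, and 3 were without the 5 richest of each library. TAM_H2Ab1 had 1 of 4 lower (8.94%) and 2 of 4 higher (1.48%), and Macro had 2 of 2 higher (2.6%). Without the cell richest in each gene no member was higher in TAM_H2Ab1 and 3 were lower. Among dendritic cells, 2 of 2 members were lower in cDC1 (5.97%), 1 of 4 in cDC2 (7.05%) and 2 of 4 in DC3 (6.48%). In NK_cells 1 of 3 was lower (7.62%), namely Cxcl2.

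Other genes of the pathway were taken from 5 lists of 46 symbols, of which 43 were in the count table (Il36g is there under its other symbol Il1f9). Over all cells 40 of them had at least 100 UMIs, and 19 were at least 2-fold lower and 1 was higher, beside 11.6% and 9.09% of all genes. Their median ratio was −0.96, against 0.08 for all genes. Of the IL-1 receptors and family, 7 of 9 were lower, among them Il18bp, which binds and blocks IL-18 (141 and 17.7 CPM), Il1rap, the shared co-receptor (−1.41), and Il1f9, the agonist IL-36γ (189 and 22 UMIs, −4.29). Il1r1, the signalling receptor itself, had only 30 and 66 UMIs. Of the genes for IL-1 maturation 1 of 7 was lower, Casp4 (−1.89), while the inflammasome genes Nlrp3 (−0.76), Casp1 (−0.64) and Pycard (−0.14) stayed within 2-fold. Signalling and feedback genes were lower in 5 of 13, and these were the inhibitors Nfkbia (−1.10), Tnfaip3 (−2.56) and Zfp36 (−1.61), with Nfkbiz (−1.96) and the kinase Irak2 (−1.35). Of the TNF list, the receptor Tnfrsf1b was lower (−1.77) and Tnfrsf1a was not (−0.20).

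Of the other CXCR2 ligands and neutrophil factors 5 of 8 were lower, including the granulocyte colony-stimulating factor receptor Csf3r (−2.04), Ccl3 (−2.19) and Ptgs2 (−2.71), whereas the platelet factor gene Pf4, also made by macrophages, stood at 252 CPM in NTT and 1217 CPM in RTT (2.27). Within neutrophils 14 of 21 list genes were lower (all genes 25.2%) and 2 higher (24.8%), with Tnfaip3 at −3.85, Nfkbiz at −2.95 and Nfkbia at −2.44. Without the cells high in C1qa 6 of 17 were lower (all genes 18.3%) and none higher, with Tnfaip3 at −2.65, Nfkbiz at −2.41 and Nfkbia at −0.80. In TAM_Spp1 15 of 30 were lower and 1 higher (all genes 13.3% each way), with Tnfaip3 at −3.21 and Nfkbiz at −2.62. In Infl_Mono, where 9.64% of all genes were lower and 6.21% higher, 8 of 31 list genes were lower and 3 were higher: Ccl3 (2.00), Ccl4 (1.29) and Pf4 (4.31). Signalling and feedback genes were lower in 5 of 7 cases in neutrophils (2 of 6 without the cells high in C1qa) and in 7 of 12 in TAM_Spp1, where the Il1b ratio was −0.28.

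Patterns over the 25 combinations of population and library with at least 20 cells were compared as a description, since these share libraries and depth. The gene most like Il1b in log2(CPM + 10) was Snx20 (Pearson's r = 0.91), the nearest to Il1rn was Rhog (0.87) and the nearest to Il1r2 was Malt1 (0.84). Cxcl2 lay nearest to Ccrl2 and Osm (both 0.91), and Tnf lay nearest to Cxcl2 (0.83). For Cxcl3 the nearest was Tnf (0.79), and for Cxcl1 it was Cxcl3 (0.56). Il1a and Cxcr2 had fewer than 500 UMIs and were not compared.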

How the data were processed

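Live CD45+ cells of 1 NTT and 1 RTT tumour were profiled by 3′ droplet single-cell RNA-seq. The authors ran Cell Ranger 6.1.1 against the mm10 reference, required over 1000 genes per cell, kept genes found in each of several experiments (among them a probe-based one, which leaves out genes), removed ribosomal and mitochondrial genes, and deposited raw UMI counts. The count table still held 88 NTT and 47 RTT cells with at most 1000 genes, and these were kept here. The authors also deposited the library and population of each cell, named by cluster after batch correction and integration with another melanoma model. No deposited column was left unused (0 of other samples).

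The 9 genes, the pathway lists and the named genes were chosen with earlier results of these data known. Every member was named, and for each with at least 500 UMIs the 3 genes nearest in pattern. UMIs were summed per population and library and expressed as CPM of all UMIs in those cells. With 1 library per group cells were not used as replicates and nothing was tested; levels carry exact Poisson, ratios exact binomial and shares Clopper-Pearson 95% intervals. A count of 0 was set to a floor of 3 UMIs, and ratios to it are bounds. A call required 2-fold, an interval away from 0 and at least 100 UMIs in both libraries together. Cxcl5 and Cxcl15 of the pathway lists and the monocyte marker Ly6c2 were missing from the count table and so were not analysed here. Scrublet, run in scanpy 1.11.5, called 5 NTT and 3 RTT cells (0.168% and 0.062%) and was taken not to have worked, so the 5% of cells with the highest scores were removed as an alternative. Python 3.11.15, numpy 2.4.6, scipy 1.17.1, pandas 2.3.3, matplotlib 3.10.9 and biopython 1.88 were used, with edgeR 4.0.16 in R 4.3.3 for TMM factors only. The ratio calculation was tested on simulated data.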

Additional observations from a re-analysis of the deposited data

Results flagged for a closer look

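Ratios of the same gene that were past 2-fold in opposite directions in different populations are listed here, and these differences between populations were not tested. With 1 library per group they cannot be set against a spread between mice. The log2 ratio of Il1b was 1.11 in Macro, against −1.07 in neutrophils (0.63 without the cells high in C1qa), −1.0 in TAM_cycling and −1.08 in cDC1. Il1rn had a ratio of 1.01 in TAM_H2Ab1 (0.57 without the richest cell in each library), against −2.33 in neutrophils (−0.95 without the cells high in C1qa), −1.21 in Monocyte_1, −1.20 in Infl_Mono, −1.31 in TAM_cycling, −1.61 in TAM_Spp1, −1.24 in cDC2 and −1.20 in DC3. For Cxcl2 the ratio was 3.09 in TAM_H2Ab1 (−3.45 without the richest cell in each library) and 1.33 in Macro, against −2.98 in neutrophils, −1.17 in Infl_Mono (−0.05 by the mean of per-cell CPM), −3.12 in DC3 (−0.29 without the richest cells) and −3.53 in NK_cells. The RTT side of TAM_H2Ab1 and Macro held 36 and 26 cells.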

How the results depend on the processing

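Few cells limit these values: 29 RTT neutrophils, the 5 RTT cells richest in Cxcl2 and single cells in small populations. Removing cells by Scrublet score, the 5 RTT cells, the 5 TAM_Spp1 cells of each library richest in Cxcl2 or NK_cells without T cell genes, and scaling by median of ratios within populations, were chosen after seeing the data. TMM and median-of-ratios scaling shifted the median gene by −0.11 in neutrophils (TMM) and by 0.11 and 0.12 in TAM_H2Ab1, and by under 0.1 elsewhere. Both raised the members lower in neutrophils from 5 to 6 (Il1r2 at −1.04 and −1.01) and moved no other count. Of the counts and main values, 171 recalculations stayed and 22 moved, and of the single-gene values 312 stayed, 158 moved and 7 reversed. Members higher over all cells numbered 2 without neutrophils and 0 without the 5 RTT cells. In neutrophils 2 were lower by the mean of per-cell CPM, and without C1qa-high cells 2 were lower and 1 higher. Without the cell richest in each gene, 2 were lower and 1 higher in TAM_cycling, 3 lower and 0 higher in TAM_H2Ab1, 1 lower in DC3 and 2 lower in NK_cells. Without the top Scrublet scores 2 were higher in TAM_cycling, 2 in TAM_Spp1 and 1 in NK_cells, and without the cells Scrublet called 2 were higher in TAM_Spp1 and 1 lower in cDC1. In TAM_Spp1 4 were lower without the 5 RTT cells and 3 without the 5 of each library. With at least 1500 genes per cell 1 was higher in Macro and 1 lower in DC3, the mean of per-cell CPM left 1 higher in Macro, and cells with Cd3e or Trac left 2 lower in NK_cells. Signs of called ratios changed for Cxcl2 over all cells without neutrophils (0.0058), for Il1b (0.63) and Cxcr2 (0.24) in neutrophils without C1qa-high cells, for Cxcl3 in TAM_cycling without the top scores (2.04) and for Cxcl2 in TAM_H2Ab1 without the richest cells (−3.45). Signs also changed for ratios short of a call, for Il1r2 in neutrophils without C1qa-high cells (1.00), for Il1a (1.27) and Cxcl3 (0.35) over all cells without neutrophils and for Il1a with at least 1500 genes (0.65), for Il1a (−1.56), Cxcl2 (−1.28) and Cxcl3 (−0.75) in TAM_Spp1 without the 5 RTT cells and without the 5 of each library (−1.62, −0.54 and −0.16), for Cxcl2 in TAM_Spp1 with at least 1500 genes (−0.32), and, without the top scores and by the mean of per-cell CPM, for Cxcl2 in Monocyte_1 (0.02 and 0.27) and Il1r2 in DC3 (0.14 and 0.09), with Il1b in NK_cells without the top scores at 1.44. The part from shares of populations was −326% for Il1a with NTT weights and 53.5% for Cxcl3 with RTT weights. Beyond the cells removed, the cause was not tested. No paired analysis was possible because each group had 1 library.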
